A study of Mus musculus with 18 samples.

Results

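The effect of deleting Rbpj from Lrig1-expressing cells of mouse skin was compared with the effect of deleting Notch1 from basal cells, each mutant being set against controls of its own cohort. The comparison used 12 of the 18 mice of the series, with 1 RNA library per mouse, chosen by genotype and cohort and not by any measured value. LR mice (n = 3) carried the tamoxifen-inducible driver Lrig1-CreERT2 and had Rbpj deleted, and they came with 3 controls of batch 1, numbered 2, 3 and 5. KN1 mice (n = 4) carried K14-CreERT1, as the labels spell it, and had Notch1 deleted, and they came with 2 controls of batch 3, numbered 1 and 7. Tamoxifen was given at 8 weeks of age, and back skin whose hair follicles the labels give as resting (telogen) was collected 10 weeks later. The labels describe the controls only as the matched controls of a mutant, and do not say whether these mice carried Cre or a floxed allele. The cell preparation was epidermis scraped from the dermis after trypsin, so it holds surface epidermis, hair follicles, sebaceous glands and the immune cells that live among them. The driver, the deleted gene and the batch all differ between the cohorts, and their parts in a difference of effects cannot be told apart.

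Notch receptors are cut when a ligand on a neighbouring cell binds them, and the freed intracellular part enters the nucleus. There it joins Rbpj, a DNA-binding protein that represses target genes without Notch and activates them with it, so that loss of Rbpj touches the output of all Notch receptors and loss of Notch1 that of a single one. In mouse epidermis, Notch1 is active as keratinocytes leave the basal layer, and chronic loss of Notch signalling is known for barrier defects and for the release of the cytokine TSLP. Lrig1 marks stem cells of the upper hair follicle, next to the sebaceous gland, whereas the keratin 14 promoter is active throughout the basal layer of epidermis and follicle.

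Library totals ran from 8541208 to 11239648 counts in LR and from 8299785 to 11056572 in LR controls. They ran from 8103155 to 9213875 in KN1 and from 10926731 to 21216169 in KN1 controls. KN1 control 1, the deepest library, merges 2 sequencing occasions of 1 mouse, and LR control 5 and KN1 control 7 carry a second name in the labels. Keratinocyte markers were abundant in each library. Hair matrix and shaft genes, which mark growing follicles, summed to 754 CPM (counts scaled to a common library size) in LR control 2, 1226 in LR 2, 1299 in KN1 2 and 385 in KN1 4. In the other 8 mice that sum was 53.0 to 101 CPM, so 4 of the 12 mice stood apart from the telogen label, at least 1 in each group except the KN1 controls. Mitochondrially encoded genes took 2.26% of counts in LR control 5, against 0.650% to 1.23% in the other 11 mice. Males, read from Xist and Y-linked genes, made up 1 of 3 LR mice, 2 of 3 LR controls, 2 of 4 KN1 mice and 1 of 2 KN1 controls.

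**Figure D1:**
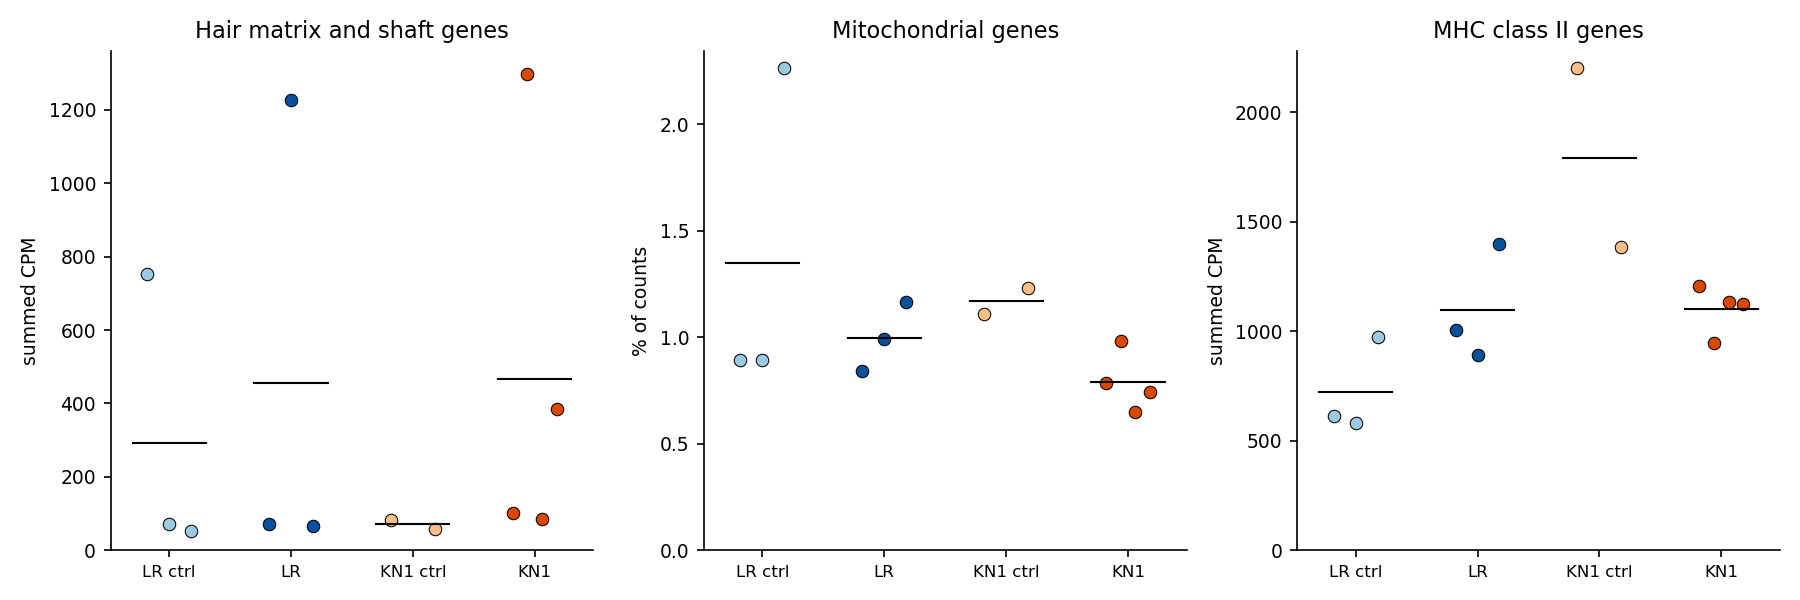
Each point is 1 mouse and each bar a group mean, with the 4 groups on the horizontal axes. The panels show summed CPM of hair matrix and shaft genes, the percentage of counts from mitochondrial genes and summed CPM of MHC class II genes. Hair genes were high in 1 LR control, 1 LR and 2 KN1 mice, LR control 5 had the highest mitochondrial share, and the KN1 controls had more MHC class II RNA than the LR controls.

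The deleted genes were read first. Notch1 (chromosome 2, 26457903 to 26516663, minus strand, GRCm38, protein coding) stood at 105, 156, 81.9 and 107 CPM in KN1 mice against 251 and 172 CPM in their controls. It stood at 380, 329 and 397 CPM in LR mice against 346, 381 and 412 CPM in theirs. Every KN1 mouse was below both of its controls, and LR mice and their controls overlapped. Notch1 fell in KN1 by edgeR's test (adjusted p = 0.0251, log2 effect -0.91 ± 0.19 SE). Every adjusted p below is from that quasi-likelihood F test and a Benjamini-Hochberg correction over all genes, unless DESeq2 is named. The difference of the effects was 0.87 ± 0.27 on the log2 scale (95% interval 0.30 to 1.44, unadjusted p = 0.00479, adjusted p = 0.439), which did not pass. The control groups themselves differed by 0.84 on the log2 scale in Notch1, LR controls being higher. Rbpj (chromosome 5, 53466152 to 53657362, plus strand, protein coding) stood at 29.9, 37.9 and 32.7 CPM in LR against 42.7, 43.3 and 73.1 CPM in LR controls. It stood at 36.8, 30.9, 34.5 and 34.6 CPM in KN1 against 42.6 and 44.2 CPM. Mutants lay below controls in both cohorts, and neither effect passed (log2 -0.66, adjusted p = 0.0659 in LR, and -0.34, adjusted p = 0.31 in KN1). Counts over a whole gene do not show whether an exon was removed, so Rbpj does not check the LR label.

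The driver genes were read next. The RNA level of Lrig1 or Krt14 does not show whether a driver acted. Lrig1, a membrane protein that restrains ErbB receptors, differed in its effects by 0.02 (95% interval -0.69 to 0.73), and Krt14, the keratin of basal cells, by 0.33 (-0.10 to 0.76). Esr1 encodes the oestrogen receptor, whose hormone-binding part is the portion fused to Cre in CreERT drivers. Its level was 26.9, 26.9, 21.2 and 15.6 CPM in KN1 mice against 6.78 and 3.80 CPM in their controls, and 5.27, 5.78 and 6.03 CPM in LR mice against 3.19, 3.62 and 5.81 CPM in theirs. Esr1 rose in KN1 (log2 2.06, adjusted p = 0.00641) and did not pass in LR (0.42, adjusted p = 0.511). The difference of -1.64 ± 0.41 did not pass (adjusted p = 0.245). Whether reads of a transgene were counted as Esr1 was not tested.

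Of 16517 genes tested, 1 differed between the 2 effects at an adjusted p under 0.05, or 0.00605%. That gene, Gypc, was lower, and no gene was higher by edgeR. At an unadjusted p under 0.05, edgeR gave 1162 genes, or 7.04% of those tested, 557 of them higher (3.37%) and 605 lower (3.66%). DESeq2 called 67 genes, 37 higher and 30 lower, at the same adjusted threshold. In edgeR, 6 further genes shared an adjusted p of 0.0587, and 15 genes in all were under 0.1. Within cohorts, 185 genes passed in LR (1.12%, with 144 or 0.872% higher and 41 or 0.248% lower) and 325 in KN1 (1.97%, with 142 or 0.86% higher and 183 or 1.11% lower). The difference carries the error of 4 groups: its median standard error over genes was 0.35 on the log2 scale, against 0.24 for the LR effect and 0.25 for the KN1 effect, while the median size of the difference was 0.27. In simulated counts for this comparison, 22% of 100 genes changed by 2-fold, 73% of 100 changed by 4-fold and 91% of 100 changed by 8-fold were recovered among 16517 genes. The changes were planted together in LR mice only, in genes with a mean of at least 1 CPM. That fit made 197 calls, against 1 in the real contrast, and more calls make the adjusted threshold easier to pass. The recovered shares can therefore be too high for the real contrast, where Has2, at a difference of 3.18, did not pass. Differences of 2-fold were thus mostly below what these 12 mice could show, and larger ones could be missed too.

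**Figure D2:**
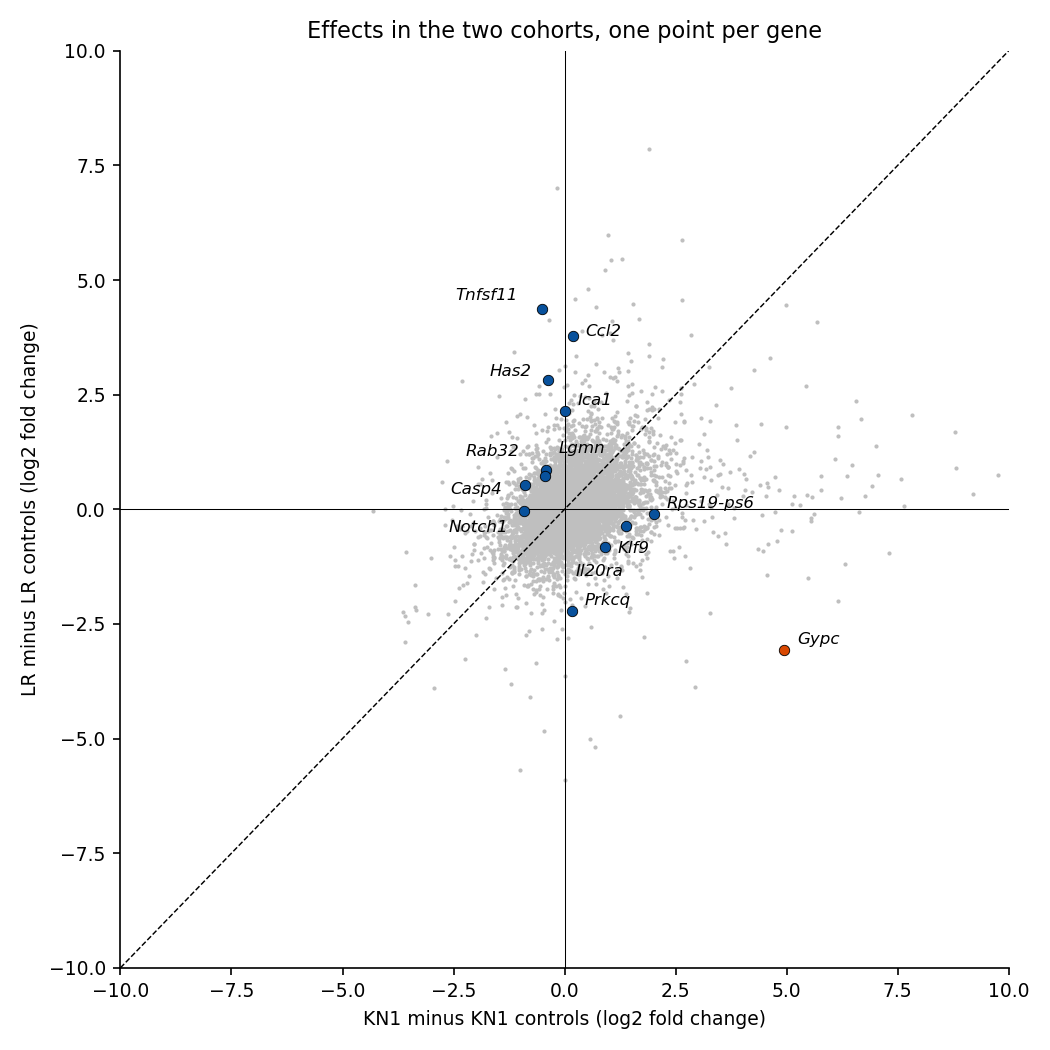
Each grey point is 1 of the 16517 genes tested, with the log2 fold change of KN1 against KN1 controls on the horizontal axis and that of LR against LR controls on the vertical axis. The dashed line marks equal effects; Gypc, in orange, lies farthest from it among the genes marked on the plot, at 4.95 and -3.08, and the other named genes are in blue.

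Gypc encodes glycophorin C, a membrane protein best known from red cells that ties the membrane to its skeleton. It stood at 16.1, 21.8, 14.1 and 14.5 CPM in the 4 KN1 mice against 0.714 and 0.217 CPM in KN1 controls. In LR it stood at 0.0959, 0.0862 and 0 CPM against 0.591, 0.339 and 0.894 CPM in LR controls. The KN1 mice were the only high ones of the 12, and in LR each mouse lay below each of its controls. The rise in KN1 passed (log2 4.95 ± 0.48, adjusted p = 0.000104), from 16 counts in the controls to 546 in the mutants, a ratio of 30.1 per unit of depth (95% counting interval 18.4 to 53.1). The LR side rests on 2 counts in the mutants against 18 in the controls, a ratio of 0.101 with a counting interval of 0.0114 to 0.422, and did not pass (adjusted p = 0.0714). The difference of effects was -8.03 ± 0.90 on the log2 scale (95% interval -9.91 to -6.14, adjusted p = 0.000774), a fitted value that depends on how so few counts are treated. The mutants alone differed by -7.78 and the controls by 0.24, so the gap lay between the mutants. The size held between -9.24 and -7.17 over 24 other settings, and the call held in 23 of them. It was lost when the 4 mice with growing hair were left out (-8.21, adjusted p = 0.0931), a setting that tests 8 mice of these cohorts. In the KR mice of the same series, in which K14-CreERT deleted Rbpj, Gypc stood at 15.1, 14.7, 22.2 and 20.2 CPM against 0.0966 and 0.541 CPM in their controls. Esr1 was likewise 17.0 to 25.3 CPM in KR against 7.63 and 5.14 CPM, so both genes were high in the mutants of each K14 line and low in LR.

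Other red cell genes did not accompany Gypc. The sum over 7 listed red cell markers, 6 of them in the table, was 7.92 to 11.4 CPM in KN1 against 21.05 and 16.6 CPM in KN1 controls, and 4.31 to 10.4 CPM in LR against 10.8 to 18.6 CPM in LR controls. Of 7 tested genes within 500 kb of Gypc, none had an unadjusted p under 0.05 in the difference. Among them, Tslp, 255 kb away, rose in both cohorts.

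Rps19-ps6 (chromosome 12, 110898114 to 110898551, plus strand) is a processed pseudogene of the ribosomal protein gene Rps19 and lies inside Tecpr2. It stood at 63.5, 59.7, 73.2 and 55.1 CPM in KN1 against 14.3 and 16.8 CPM in KN1 controls, and at 11.0, 5.52 and 9.70 CPM in LR against 11.7, 9.60 and 7.06 CPM in LR controls. All KN1 mice were high, and LR mice and their controls overlapped. The rise in KN1 passed (log2 2.02 ± 0.27, adjusted p = 0.00223), while the difference of effects, -2.13 ± 0.36, had an adjusted p of 0.0587. It passed in 6 of 24 other settings, DESeq2 among them, and the adjusted p ran from 3.45e-05 to 0.188. The parent gene Rps19 stood at 1002 to 1312 CPM in KN1 against 1284 and 1516 CPM in its controls, groups that overlapped, and its difference was 0.28 (adjusted p = 0.878). Reads of a processed pseudogene and its parent can be exchanged in counting, so the Rps19-ps6 value is uncertain as to source. Of 14 tested genes within 500 kb, none had an unadjusted p under 0.05 in the difference. Unlike Gypc, the pseudogene stood at 8.39 to 13.3 CPM in KR mice, against 8.79 and 11.6 CPM in their controls.

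Klf9 (chromosome 19, 23141226 to 23168134, plus strand), a zinc-finger factor induced by glucocorticoids, stood at 150, 166, 201 and 235 CPM in KN1 against 71.3 and 73.7 CPM in its controls. In LR it stood at 121, 152 and 103 CPM against 146, 163 and 176 CPM. KN1 mice were above both controls, and LR mice and their controls overlapped. Klf9 rose in KN1 (log2 1.38 ± 0.23, adjusted p = 0.00881), and the difference of effects was -1.75 ± 0.30 (adjusted p = 0.0587). The control groups differed by 1.16 in Klf9, more than the 0.59 by which LR mutants were below KN1 mutants, so most of this difference lay between the controls. With all 7 controls of the series pooled, the Klf9 difference was -0.59 (adjusted p = 0.502). Il20ra, a receptor subunit for the epidermal cytokines IL-19, IL-20 and IL-24, stood at 64.2, 51.7, 53.4 and 48.1 CPM in KN1 against 30.5 and 27.6 CPM. In LR it stood at 26.4, 25.5 and 19.4 CPM against 47.8, 42.5 and 35.8 CPM. The groups of each cohort did not overlap, and they were ordered in opposite ways. Neither effect passed on its own (log2 -0.82, adjusted p = 0.0714 in LR and 0.90, adjusted p = 0.0516 in KN1), and the difference was -1.72 ± 0.32 (adjusted p = 0.0666).

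Prkcq, which encodes protein kinase C theta, a kinase of T cell receptor signalling, stood low in LR. It stood at 1.25, 1.29 and 1.62 CPM in LR against 6.15, 6.10 and 7.24 CPM in LR controls, and at 4.33, 9.61, 5.12 and 6.20 CPM in KN1 against 4.69 and 6.73 CPM. Prkcq fell in LR (log2 -2.23 ± 0.31, adjusted p = 0.0012) and did not pass in KN1 (0.16, adjusted p = 0.815). The difference was -2.39 ± 0.44 (95% interval -3.31 to -1.47, adjusted p = 0.0666). In KR mice, in which Rbpj was also deleted, Prkcq stood at 3.92, 3.57, 4.09 and 2.86 CPM against 6.66 and 9.82 CPM in their controls, so mutants there were below controls too. T cell markers leaned the same way in both cohorts: the summed level of the 23 measured was 103 to 183 CPM in LR against 179 to 267 CPM, and 143 to 194 CPM in KN1 against 257 and 322 CPM. Their median log2 fold change was -0.62 in LR and -0.58 in KN1, and the part of T cells in the Prkcq value was not tested. In such bulk samples fewer cells of a type and less RNA per cell cannot be told apart.

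**Figure D3:**
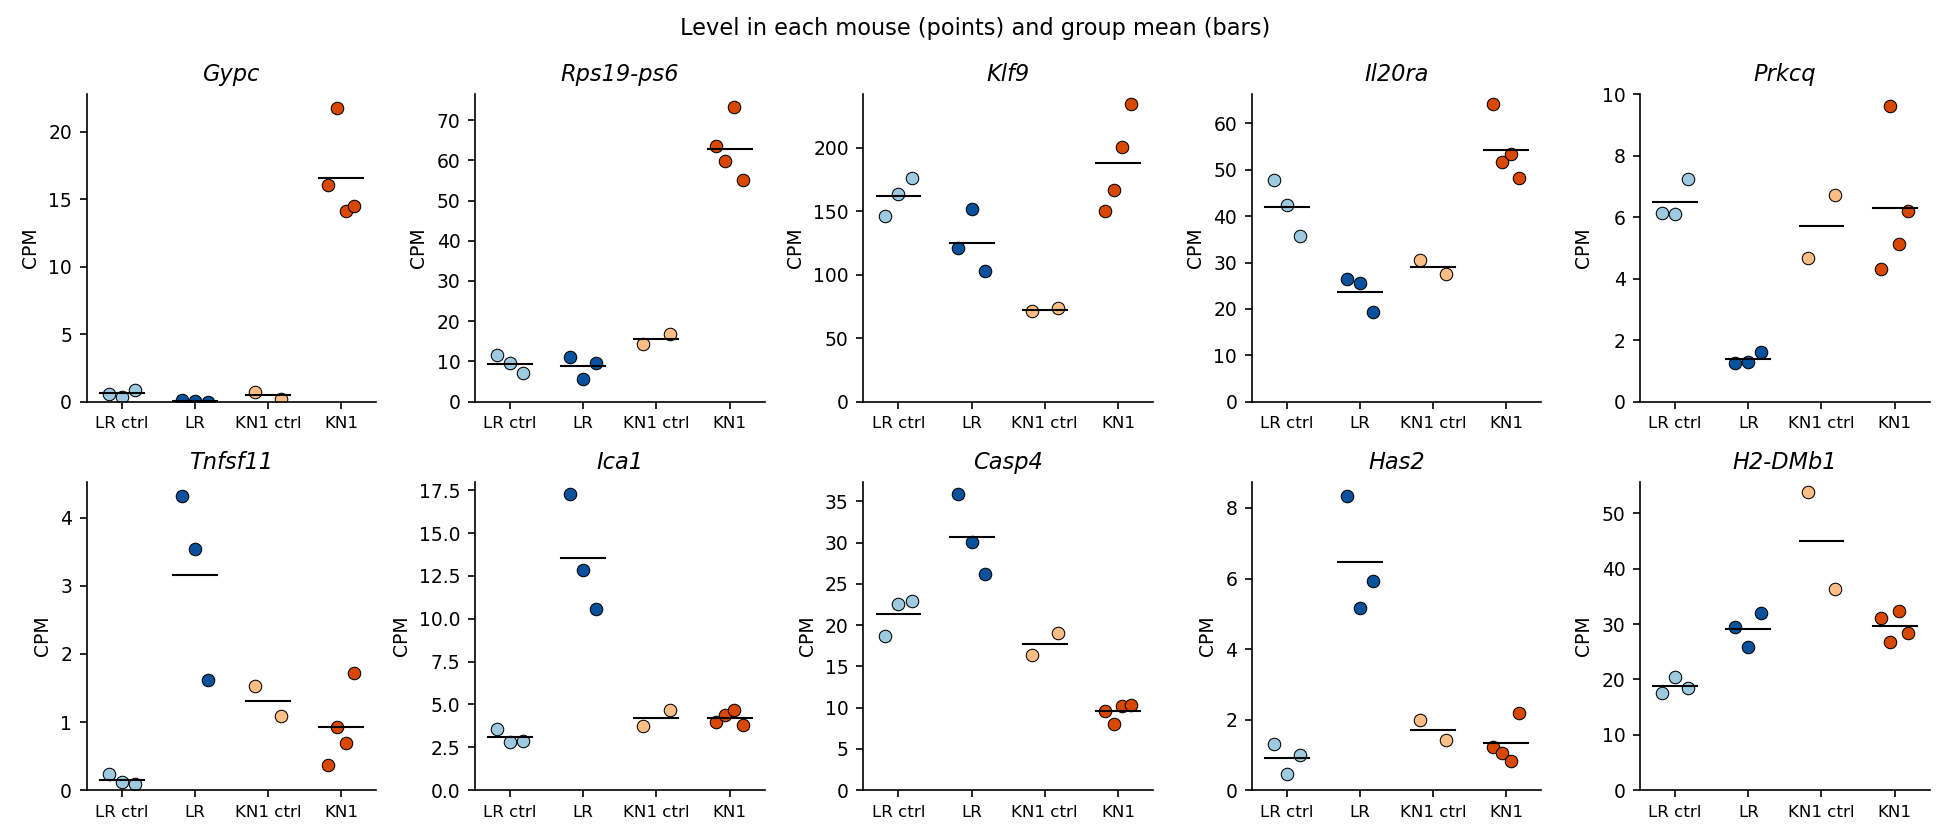
Level in CPM (vertical axes, from 0) of 10 genes in each of the 12 mice, as points, with bars at the group means. The upper row holds genes whose effect was lower in LR than in KN1, with Gypc high in the 4 KN1 mice only, and the lower row holds genes whose effect was higher in LR.

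On the higher side, Tnfsf11, Ica1 and Has2 rose in LR and had effects near 0 or slightly negative in KN1. Tnfsf11 (chromosome 14, 78277445 to 78308043, minus strand) encodes RANKL, a cytokine that keratinocytes use to signal to Langerhans cells and that osteoclasts need. It stood at 4.31, 3.54 and 1.62 CPM in LR against 0.236, 0.113 and 0.0894 CPM, and at 0.371, 0.926, 0.692 and 1.72 CPM in KN1 against 1.53 and 1.09 CPM. LR mice stood above all of their controls, which held 4 counts together, and KN1 mice overlapped with theirs. The ratio of LR to its controls was 23.0 (95% counting interval 8.70 to 86.0), the rise in LR passed (adjusted p = 0.0012), and the difference was 4.87 ± 0.81 (adjusted p = 0.0587). Of that difference, 3.13 lay between the control groups, where LR controls were the lower, and 1.74 between the mutants.

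Ica1 (chromosome 6, 8630527 to 8778488, minus strand), a protein of secretory vesicles known as an autoantigen of islet cells, stood at 17.3, 12.8 and 10.6 CPM in LR against 3.55, 2.82 and 2.86 CPM in LR controls. In KN1 it stood at 3.96, 4.40, 4.71 and 3.79 CPM against 3.77 and 4.67 CPM. Only the LR mice were high. Ica1 rose in LR (log2 2.14 ± 0.26, adjusted p = 0.000801), the KN1 effect was 0.01, and the difference was 2.13 ± 0.37 (95% interval 1.35 to 2.92, adjusted p = 0.0587). Has2 (chromosome 15, 56665627 to 56694539, minus strand), a hyaluronan synthase that keratinocytes switch on in injured epidermis, stood at 8.34, 5.17 and 5.92 CPM in LR against 1.30, 0.452 and 0.984 CPM. In KN1 it stood at 1.24, 1.04, 0.830 and 2.18 CPM against 1.99 and 1.41 CPM, where mutants and controls overlapped. Has2 rose in LR (2.81 ± 0.40, adjusted p = 0.0012), and its difference was 3.18 ± 0.57 (adjusted p = 0.0587).

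Casp4, Lgmn and Rab32 had effects of opposite sign in the 2 cohorts. Casp4 (chromosome 9, 5308828 to 5336783, plus strand), the inflammatory caspase that senses bacterial lipopolysaccharide inside cells, stood at 36.0, 30.1 and 26.2 CPM in LR against 18.7, 22.6 and 22.9 CPM. It stood at 9.65, 7.99, 10.2 and 10.3 CPM in KN1 against 16.4 and 19.0 CPM. The LR mice were all above their controls and the KN1 mice all below theirs. Casp4 fell in KN1 (log2 -0.89 ± 0.18, adjusted p = 0.0204), its LR effect of 0.52 did not pass (adjusted p = 0.145), and the difference was 1.41 ± 0.25 (adjusted p = 0.0587). Lgmn, a lysosomal protease that cuts after asparagine, rose in LR (0.86, adjusted p = 0.0153), with 27.7, 25.7 and 38.8 CPM against 18.4, 17.7 and 14.5 CPM. Its KN1 effect was -0.42 (adjusted p = 0.2), with 21.5, 26.0, 23.9 and 21.7 CPM against 31.4 and 31.0 CPM, and its difference was 1.29 ± 0.24 (adjusted p = 0.0666). Of the Lgmn difference, 0.40 lay between the mutants and 0.89 between the controls, where KN1 controls were the higher. Rab32, a small GTPase of lysosome-related organelles such as melanosomes, rose in LR (0.72, adjusted p = 0.0232), with 44.9, 37.0 and 40.1 CPM against 27.4, 26.9 and 20.0 CPM. In KN1 it stood at 19.8, 16.1, 20.3 and 20.1 CPM against 23.3 and 28.8 CPM, and its difference was 1.16 ± 0.22 (adjusted p = 0.0666). DESeq2 called the difference in each of Casp4, Lgmn, Rab32, Ica1, Has2, Prkcq, Il20ra and Klf9, with adjusted p from 0.000111 to 0.00187. In edgeR's main fit, where each mutant was set against controls of its own cohort, none of the 8 passed. Other edgeR fits called some of them: Casp4, Ica1, Klf9 and Rab32 with sex as a covariate, Casp4 and Il20ra without LR control 5, and Has2 without KN1 4. With all 7 controls pooled, edgeR called Casp4, Rab32, Ica1, Has2, Prkcq and Il20ra, with adjusted p from 0.00121 to 0.0122, but not Lgmn or Klf9. That pooled fit compares mutants across batches.

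**Figure D4:**
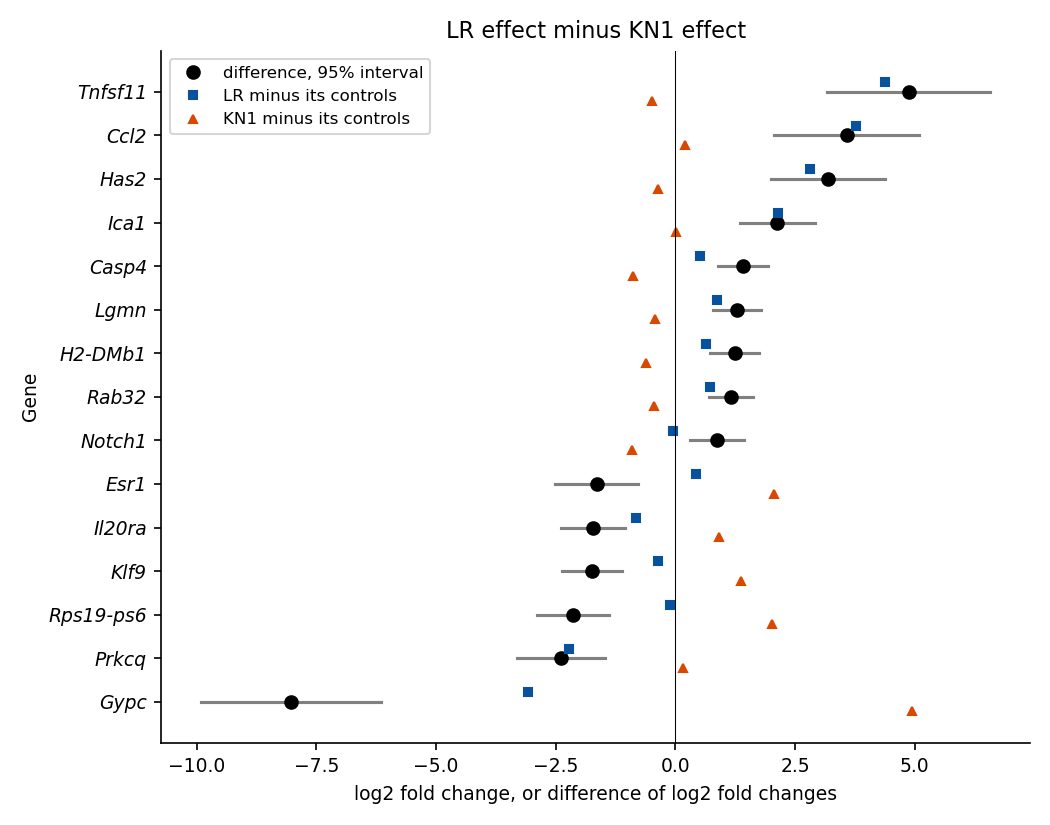
For 15 genes (vertical axis), black points show the LR effect minus the KN1 effect with 95% intervals on a log2 axis, blue squares the LR effect and orange triangles the KN1 effect. Gypc lies at -8.03 and Tnfsf11 at 4.87, and the intervals are of single genes without adjustment for the number tested.

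Rbpj binds DNA at sites whose core is TGGGAA, which read on the opposite strand is TTCCCA. The 250 bases before the start of 3 genes described here are printed, from RefSeq on GRCm38.p6, to show 1 promoter with that core and 2 without it; capitals mark the core.
Casp4, chr9:5308599-5308848, plus strand: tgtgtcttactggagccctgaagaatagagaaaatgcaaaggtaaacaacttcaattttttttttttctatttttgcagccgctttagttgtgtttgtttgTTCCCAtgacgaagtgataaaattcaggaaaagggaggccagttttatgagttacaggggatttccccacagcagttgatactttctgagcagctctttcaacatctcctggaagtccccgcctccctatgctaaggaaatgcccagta
Klf9, chr19:23140976-23141225, plus strand: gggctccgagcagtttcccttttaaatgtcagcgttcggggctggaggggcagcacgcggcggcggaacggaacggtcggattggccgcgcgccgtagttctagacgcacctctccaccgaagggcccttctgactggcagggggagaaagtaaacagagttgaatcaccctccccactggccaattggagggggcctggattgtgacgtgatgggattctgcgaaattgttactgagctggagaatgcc
Tnfsf11, chr14:78308044-78308293, minus strand: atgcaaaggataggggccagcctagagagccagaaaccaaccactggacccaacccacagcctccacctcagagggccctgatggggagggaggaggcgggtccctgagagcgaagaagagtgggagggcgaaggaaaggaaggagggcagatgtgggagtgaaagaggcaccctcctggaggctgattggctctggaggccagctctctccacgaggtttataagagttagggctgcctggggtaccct
In Casp4 the match begins 149 bases before the start and lies on the minus strand. Promoters were read for 7 of the genes with the smallest p in either direction, and Casp4 was the only match. Gypc, Has2 and Rps19-ps6 were not among those 7, so whether Gypc holds the core was not tested. Of 8 listed Notch target genes whose promoters were read, 5 held the core. Of all 32851 RefSeq starts, 21.6% held it in the same 250 bases, and of 10231 tested genes with a start in the table, 23.9% did. A match of 6 letters is a description of these windows and not a binding site.

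No gene of the pathway itself passed in the difference, though most 2-fold differences would be missed at this size of study, and larger ones could be too. Of 34 receptors, ligands, modifiers and Rbpj partners, 31 were tested and none passed in the difference (0 by edgeR). At an unadjusted p under 0.05 there were 2, a share near the 7.04% of all genes. Those 2 were Notch1, above, and Numb, an inhibitor of Notch, at -0.38 ± 0.17. The list's median difference was -0.08, with members from -0.62 to 1.09, beside a median of -0.02 over all genes tested. Of 19 Notch target genes, 17 were tested, with a median of 0.01 and members from -3.85 to 0.89. Under 0.05 unadjusted there was 1 gene, again a share near that over all genes. That gene was Bhlhe40, a repressor of the cell's clock and differentiation genes, which stood at 310, 323 and 347 CPM in LR against 166, 180 and 208 CPM. It stood at 157, 211, 208 and 199 CPM in KN1 against 178 and 145 CPM, and it rose in LR (0.82, adjusted p = 0.0211) with a difference of 0.56 ± 0.24 (adjusted p = 0.667). The classical target Hes1 stood at 29.6, 43.7 and 35.1 CPM in LR against 54.9, 54.7 and 39.3 CPM, and at 77.3, 76.6, 102 and 92.0 CPM in KN1 against 91.8 and 54.6 CPM. Its difference of -0.70 (95% interval -1.42 to 0.02, adjusted p = 0.72) did not pass, and neither did that of Nrarp, a feedback inhibitor of Notch, at -0.59 (-1.31 to 0.14).

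Several chemokines were high in LR. Of 30 tested chemokine and receptor genes, none passed (0 by edgeR, 5 at an unadjusted p under 0.05, each higher, beside 3.37% of all genes in that direction), and the median difference was 0.30. That median rested on KN1 control 1, without which it was 0.0043, and it was 0.60 with a replicate block. Ccl2, which draws monocytes and dendritic cells, stood at 114, 52.9 and 82.2 CPM in LR against 7.57, 6.67 and 4.11 CPM, and at 7.18, 10.8, 4.43 and 2.64 CPM in KN1 against 7.65 and 2.93 CPM. LR mice were far above every other mouse. Ccl2 rose in LR (log2 3.77 ± 0.51, adjusted p = 0.00149), its KN1 effect was 0.19, and its difference of 3.58 ± 0.71 had an adjusted p of 0.122. Ccl1, a ligand of CCR8 on T cells, stood at 10.3, 6.81 and 3.77 CPM in LR against 0.236, 0.113 and 0.179 CPM, rose there (adjusted p = 0.0012) and had a difference of 4.31 (adjusted p = 0.234). Cxcl16, the ligand of CXCR6, stood at 181, 142 and 153 CPM in LR against 90.0, 91.5 and 65.8 CPM and at 82.4 to 108 CPM in KN1 against 77.4 and 103 CPM. It rose in LR (0.95, adjusted p = 0.00418), with a difference of 0.88 (adjusted p = 0.256). Ccl7 and Ccl22 differed by 3.30 and 2.07 (adjusted p = 0.439 for each) and passed in neither cohort. DESeq2 called Ccl1 and Ccl2 in the difference.

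Among 31 tested cytokine and receptor genes of the type 2 and interleukin 1 families, none passed (0 by edgeR) and 6 were higher at an unadjusted p under 0.05, beside 3.37% of all genes. They were Il1f9, Il18r1, Il4ra, Tgfb2, Tnf and Lif, and the list's median was 0.22. Il4ra, the receptor subunit for IL-4 and IL-13, rose in LR (0.86, adjusted p = 0.028), with 98.1, 69.2 and 103 CPM against 43.5, 44.9 and 60.2 CPM, and had an effect of 0.19 in KN1. Lif, a cytokine of the interleukin 6 family, rose in LR (1.86, adjusted p = 0.0143), and its difference was 1.18 (adjusted p = 0.686). Il1f9, Il18r1, Tgfb2 and Tnf passed in neither cohort. Of 47 interferon-induced genes, none passed (0 by edgeR) and 3 were higher and 1 lower at 0.05 unadjusted, a share near the 7.04% of all genes. The median difference was -0.18, with 28 negative and 19 positive, and it was 0.79 with all 7 controls pooled. Ifitm3, an antiviral membrane protein, rose in LR (1.30, adjusted p = 0.0012), with 217, 162 and 233 CPM against 94.8, 87.8 and 65.6 CPM, and its difference was 0.77 (adjusted p = 0.482).

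MHC class II genes, whose products present peptides on antigen-presenting cells such as Langerhans cells, all differed in the same direction. The 7 listed were tested and had a positive difference, none passed (0 by edgeR), and 6 were under 0.05 unadjusted, beside 3.37% of all genes in that direction. The median difference was 1.24, made up of 0.63 in LR and -0.57 in KN1. H2-DMb1, which helps load class II molecules, stood at 29.5, 25.9 and 32.1 CPM in LR against 17.5, 20.4 and 18.4 CPM. In KN1 it stood at 31.2, 26.9, 32.4 and 28.4 CPM against 53.9 and 36.4 CPM. LR mice were above all of their controls, KN1 mice below both of theirs, and the 2 groups of mutants overlapped. Its difference was 1.24 ± 0.24 (adjusted p = 0.0858). LR mutants differed from KN1 mutants by -0.03 and LR controls from KN1 controls by -1.27, so this difference lay between the controls. Cd74, the invariant chain, stood at 339, 270 and 466 CPM in LR against 192, 187 and 390 CPM and at 359, 298, 340 and 361 CPM in KN1 against 809 and 534 CPM, with a difference of 1.47 (adjusted p = 0.276). The summed level of the 7 genes was 580 to 973 CPM in LR controls and 1387 and 2201 CPM in KN1 controls, against 890 to 1398 CPM in LR and 945 to 1206 CPM in KN1. When all 7 controls of the series were pooled, so that the mutants were compared directly, the list's median was -0.03. When the second-named controls were left out it was 1.82. The part of the controls' own cell makeup in this difference was not tested.

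Langerhans cell markers leaned the same way. Of 11 tested, 3 were higher at 0.05 unadjusted (Cd74, which is in both lists, Mfge8 and H2-M2), beside 3.37% of all genes in that direction. All 11 had a positive difference, beside 7992 of all 16517 genes, and the median was 0.54. Their summed level was 533 to 858 CPM in LR controls, 865 to 1195 CPM in LR, 1189 and 1466 CPM in KN1 controls and 890 to 1058 CPM in KN1. H2-M2, a class I-like gene, rose in LR (1.80, adjusted p = 0.0158), with 145, 161 and 104 CPM against 25.9, 31.1 and 60.4 CPM, and stood at 28.7 to 48.3 CPM in KN1 against 36.2 and 15.3 CPM. With all controls pooled, the median over the list was -0.00. Macrophage and monocyte markers, 7 tested, had a median of 0.46, with sums of 45.6 to 70.6 CPM in LR controls, 49.4 to 67.8 CPM in LR, 70.5 and 88.9 CPM in KN1 controls and 54.2 to 68.4 CPM in KN1. Of 16 listed macrophage and monocyte markers, 11 were in the table, which holds no gene with fewer than 18 counts in total. No marker found in the table for these lists was at 0 in all 12 mice.

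**Figure D5:**
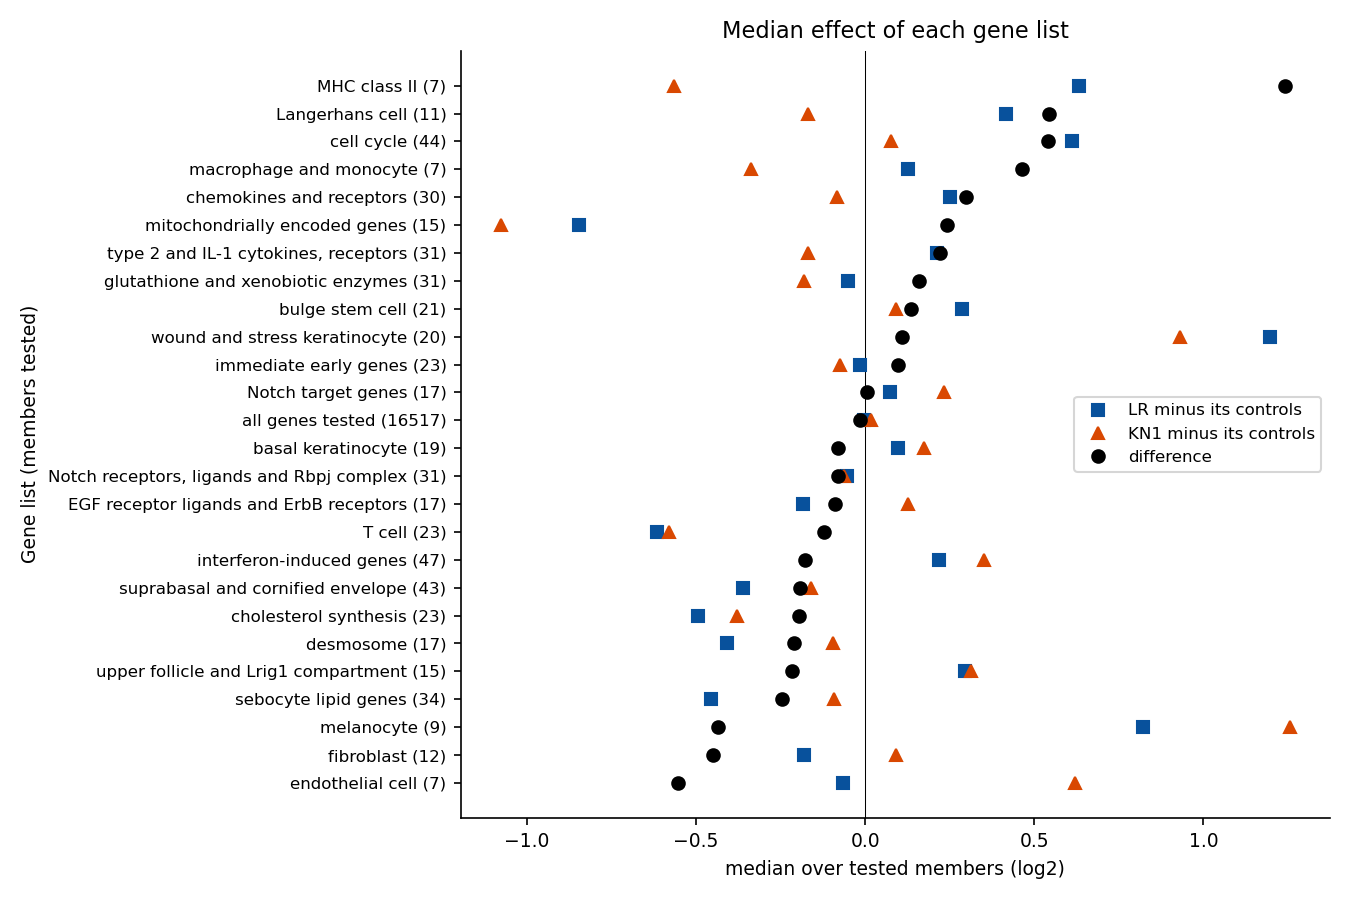
For each gene list with at least 7 tested members, growing hair genes left out, the median log2 effect is shown for LR (blue squares), KN1 (orange triangles) and their difference (black points), with the number of tested members in brackets. MHC class II genes lie highest in the difference at 1.24, and all genes tested lie at -0.02.

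Keratinocyte lists differed less. Of 19 basal keratinocyte genes, 1 was under 0.05 unadjusted, beside 7.04% of all genes. That gene was Igfbp3, a binding protein for insulin-like growth factors. It stood at 844, 790, 992 and 792 CPM in KN1 against 333 and 374 CPM, and at 432, 449 and 552 CPM in LR against 502, 450 and 260 CPM. Igfbp3 rose in KN1 (1.27, adjusted p = 0.0113), LR mice and controls overlapped, and the difference was -1.03 ± 0.29 (adjusted p = 0.344). Of 43 suprabasal and cornified envelope genes, 34 had a negative difference and 9 a positive one, beside 8525 negative of all 16517 genes. Their median was -0.19. The 3 under 0.05 unadjusted, Hrnr (1.39), Grhl3 (-0.82) and Flg (-1.98), were a share near the 7.04% of all genes. Wound and stress keratinocyte genes had medians of 1.20 in LR and 0.93 in KN1 over 20 tested, and a median difference of 0.11. Of these, Stfa3, a cysteine protease inhibitor, rose in LR (4.81, adjusted p = 0.0195), with 39.1, 20.95 and 42.1 CPM against 1.42, 1.13 and 1.07 CPM. It spread from 2.23 to 19.1 CPM in KN1 around controls at 2.75 and 12.6 CPM, and its difference was 4.30 ± 1.18 (adjusted p = 0.364). Sprr2a3, a cornified envelope precursor, rose in LR (2.76, adjusted p = 0.0456) and differed by 2.36 (adjusted p = 0.579). Both belong to families of near-identical genes, so their counts are uncertain.

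The upper follicle and Lrig1 compartment, where the LR driver acts, had 15 tested genes and a median difference of -0.22, and none passed in the difference. Gata6, a factor of the sebaceous duct lineage, stood at 110, 67.3 and 137 CPM in LR against 30.6, 42.7 and 44.6 CPM and at 31.7 to 47.8 CPM in KN1 against 30.0 and 26.4 CPM. Gata6 rose in LR (1.41, adjusted p = 0.00159), its KN1 effect was 0.48, and the difference was 0.93 (adjusted p = 0.482). Krt79, the keratin of the follicle opening and sebaceous duct, stood at 991, 653 and 927 CPM in LR against 1623, 1470.2 and 1141 CPM and at 1540.3 to 3316 CPM in KN1 against 1388 and 1939 CPM. The LR mice were below all of their controls, neither effect passed, and the difference was -1.21 (adjusted p = 0.439). Lgr6, a receptor of isthmus stem cells, differed by -0.53. Sebocyte lipid genes, 34 tested, had medians of -0.46 in LR and -0.09 in KN1 and a median difference of -0.25. Cholesterol synthesis genes, 23 tested, had medians of -0.50 and -0.38 and none under 0.05.

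Cell cycle genes leaned to LR as a group of small differences. Of 44 tested, 41 had a positive difference, beside 7992 of all 16517 genes, and the median was 0.54 (0.61 in LR and 0.08 in KN1). None passed (0 by edgeR). The 2 under 0.05 unadjusted, Cdc25c (1.37) and Nusap1 (1.17), were a share near the 3.37% of all genes in that direction. The summed level was 1339 to 1780 CPM in LR against 969 to 1237 CPM in its controls, which did not overlap, and 1123 to 1551 CPM in KN1 against 1148 and 1302 CPM, which did. The median stayed between 0.22 and 0.85 over 24 other settings. Hair matrix and shaft genes had a median difference of -4.89 with none of 29 under 0.05 unadjusted. Without the 4 mice with growing hair their median was 0.19.

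Mitochondrially encoded genes had medians of -0.85 in LR and -1.08 in KN1 and a difference of 0.24. The level of mt-Co3, a subunit of cytochrome oxidase, was 58.2 CPM in LR control 5 and 53.5 and 60.3 CPM in the KN1 controls. It was 4.26 and 4.52 CPM in LR controls 2 and 3, 3.16 to 6.04 CPM in LR and 3.68 to 5.21 CPM in KN1. The high libraries are thus the merged or second-named controls, and the low ones are all mutants and both remaining LR controls. Without LR control 5, edgeR called 13 genes in the difference, 9 higher and 4 lower, among them mt-Co3 (3.76, adjusted p = 0.00499), mt-Co2 (3.68), mt-Atp6 (3.69), Cd74 (1.90, adjusted p = 0.0357), Casp4, Il20ra, Igfbp3, Rps19-ps6 and Gypc. In that fit the LR effect on mt-Co3 was 0.12 and the KN1 effect -3.65.

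Beside these differences, the 2 effects had much in common. They share no control mouse, though they share the spread estimate of the fit. No mutant library was merged or second-named, whereas both KN1 controls and LR control 5 were, so both effects can hold that difference between libraries. With the second-named share as a covariate, edgeR called 146 genes in LR and 19 in KN1. The part of this library difference in what the effects had in common was not tested. Over all 16517 genes, 67.0% had effects of the same sign, and so did 165 of the 185 genes that passed in LR (89.2%) and 292 of the 325 that passed in KN1 (89.8%). Across genes, which are not independent replicates, Pearson's r of the 2 effects was 0.36 and Spearman's rho 0.44. There were 16 genes that passed in both, and all 16 had the same sign. They were 8.65% of the LR genes, beside 1.97% of all genes tested that passed in KN1. Of the KN1 genes they were 4.92%, beside 1.12% of all genes tested that passed in LR. Tslp, the cytokine of barrier-defective skin, was among them. It stood at 11.4, 3.62 and 4.42 CPM in LR against 1.66, 0.904 and 0.715 CPM and at 2.23, 2.43, 3.18 and 2.30 CPM in KN1 against 0.408 and 0.760 CPM. Every mutant was above every control of its cohort. Tslp rose by 2.58 in LR and 2.19 in KN1 on the log2 scale (adjusted p = 0.00411 and 0.0378), and the difference of 0.39 had an interval of -1.09 to 1.87, which leaves room for a 2-fold gap in either direction. Ceacam12, an adhesion protein gene, rose by 2.52 and 1.97 (adjusted p = 0.000801 and 0.0109), with a difference of 0.55 (-0.37 to 1.47). Traf3, an adaptor that restrains non-canonical NF-kappaB signalling, rose by 0.68 and 0.70 (adjusted p = 0.0353 and 0.0395), and its difference of -0.02 had an interval of -0.49 to 0.45. Mill1, Ptprs and Eif4e3 also rose in both, and Me1, Cab39l, Ccdc152, Tmem246 and Vps41 fell in both.

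Set directly against each other, LR and KN1 mutants differed in 4159 of 16517 genes (25.2%), and their controls in 4556 (27.6%), values that hold the batch as well as the genotype.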

How the data were processed

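Poly(A) RNA of 18 mice had been sequenced by a commercial provider, and the deposited table holds raw counts per gene for 21011 genes. The authors used STAR, HTSeq and DESeq2 with build mm10, per the submitters' processing notes; versions, strand setting and annotation are not given in the sources used here. Without strand, reads of overlapping or antisense genes cannot be told apart.

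All 18 mice entered 1 fit with 6 group means, so that groups of 2 to 4 mice shared 1 estimate of spread (common biological coefficient of variation 0.225). The fit was edgeR 4.0.16 (R 4.3.3, limma 3.58.1): TMM factors, filterByExpr (16517 genes kept), robust quasi-likelihood F tests, two-sided, Benjamini-Hochberg over all genes tested at 0.05. The main contrast was the LR effect minus the KN1 effect. Standard errors came from the F statistic, intervals are 95%, and levels are CPM from counts and TMM factors. Counting intervals are exact binomial and cover counting error only. The smallest chi-square per degree of freedom between libraries of a group was 5.98, so none was counted as a repeat of another. Since 1 sample is 1 mouse, the tests measure spread between mice. In simulated counts for the main contrast, 5.58% of calls were false. Apart from the planted changes, those counts held no differences from batch, growing hair or merged libraries. The false share therefore does not carry over to the real contrast.

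Members and gene lists were chosen with earlier results of these data known. The genes named are Rbpj, Notch1, Lrig1, Krt14 and Esr1, the 5 with the smallest p in each direction (at least 5 CPM in some group, ordinary symbol), and up to 4 per list by smallest p. Chosen after their values were seen were Tnfsf11, Hes1, Nrarp, Rps19, the genes that passed in both cohorts, mt-Co3 and its fellows, and further list members under 0.05. Some results that the rule selects are left out here. Coordinates are from GENCODE M21 on GRCm38, the assembly also called mm10, and promoters from RefSeq on GRCm38.p6. Other settings tried were a fit of the 12 mice alone, DESeq2 1.42.0, a replicate block, covariates for second-named share and sex, RLE factors, a minimum mean of 1 CPM or no filter, other choices of controls, and the omission of single mice. Added once the data had been seen were the omission of the mice with growing hair and a covariate for hair genes.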

Additional observations from a re-analysis of the deposited data

Results flagged for a closer look

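Gypc differed between the 2 cohorts in its response, by -8.03 on the log2 scale in the test of the difference itself: it was high in each KN1 mouse and near 0 in each LR mouse. Of 15 groups of 4 mice examined for a single mouse far from its fellows, 1 was singled out: Rab32 in KN1, where KN1 2 stood at 16.1 CPM and the other 3 mice between 19.8 and 20.3 CPM. At the limit used, chance singles out about 1 in 20 groups.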

How the results depend on the processing

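Of the 12 genes followed through all 24 alternatives (Notch1, Esr1 and the 5 named in each direction), none changed the sign of its difference. With all 7 controls pooled the MHC class II median turned to -0.03. Gypc passed in all except the omission of the 4 mice with growing hair, chosen after seeing the data, where edgeR called 0 genes (1118 at an unadjusted p under 0.05), 96 in LR and 13 in KN1. The counts moved more than the values. DESeq2 called 67 genes in the difference, 547 in LR and 820 in KN1. Without a filter the difference held 3 genes, with sex as a covariate 11, and with the second-named controls left out 21, among them Cd74 and H2-Ab1, with 41 in KN1. Pooling all 7 controls gave 692, 1052 and 1867, and the difference then compares mutants across batches. In the 12 mice alone 119 genes passed in LR and 119 in KN1. KN1 held 19 genes with the second-named share and 164 with hair genes as a covariate. The replicate block left 1 gene in the difference, 268 in LR and 2 in KN1. Of 9 same-numbered pairs, 4 had deviations correlated above 0.1 (r from -0.08 to 0.42, the highest KN1 control 1 with KN1 1), so pairing by number was not established. Leaving out 1 mouse at a time gave 1 to 13 genes in the difference, 60 to 246 in LR and 2 to 640 in KN1. The difference held 13 genes without LR control 5, 3 without KN1 4 and 2 without LR control 2 or LR 3. LR held 70 without LR control 3, 119 without LR control 5, 118 without LR 1 and 60 without LR 3. KN1 held 2 without KN1 control 7, which leaves 1 control assumed to vary like the other groups, 640 without LR control 5, 208 without LR 1, 120 without KN1 2, 202 without KN1 3 and 97 without KN1 4. Why these counts moved was not tested. Depth limits genes under 1 CPM, where LR values of Gypc rest on single counts.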

Other observations

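Dsc2, which encodes the desmosomal cadherin desmocollin 2, separated the cohorts more than the genotypes. It stood at 91.2, 106 and 152 CPM in LR controls and at 34.7, 47.1 and 26.4 CPM in LR, whereas KN1 controls stood at 5.81 and 8.57 CPM and KN1 mice at 6.43, 4.63, 6.92 and 8.50 CPM. The mice of the KR cohort stood between 57.9 and 95.1 CPM, so the KN1 cohort alone was low, mutants and controls alike. Dsc2 fell in LR (log2 -1.69 ± 0.25, edgeR adjusted p = 0.00163), its KN1 effect was -0.09, and the difference of -1.60 ± 0.39 did not pass by edgeR (adjusted p = 0.234) and passed by DESeq2. The controls of the cohorts differed by 4.04 on the log2 scale.

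Melanocyte markers had medians of 0.82 in LR and 1.26 in KN1 over 9 tested genes. Pmel, the fibril protein of melanosomes, rose in KN1 (1.01, edgeR adjusted p = 0.0423), with 23.4, 23.2, 24.8 and 25.2 CPM against 13.1 and 10.7 CPM, and stood at 21.8, 34.7 and 35.8 CPM in LR against 27.3, 35.5 and 24.4 CPM. Its difference was -0.92 ± 0.32 (adjusted p = 0.5). The list's median difference was -0.44, and 0.02 without the 4 mice with growing hair.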
